A study of Homo sapiens with 9 samples.

Results

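The 10 genes described here are noncoding host genes of small nucleolar RNAs (snoRNAs): GAS5, SNHG1, SNHG3, SNHG5, SNHG6, SNHG7, SNHG8, SNHG12, SNHG15 and SNHG16. They were taken by symbol as a named family from the 26830 genes of the deposited tables, with earlier results of these data known, and all 10 were found and tested. The study sequenced poly(A) RNA of cells labelled NB4, a human leukaemia line used as a model of acute promyelocytic leukaemia, although the labels also give the cell type as acute monocytic leukemia. Cells received the solvent DMSO, the compound FB23 or the compound FB23-2 for 48 h, with 3 libraries per group, and the series concerns inhibition of FTO, an RNA demethylase that removes the methyl group of N6-methyladenosine. The doses are not given in the labels, so the compounds are compared at the same time but not at a known common dose. The labels do not say whether the 3 libraries of a group came from separate cultures, and p-values then measure only the spread between these libraries, which may be technical.

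A snoRNA host gene carries its snoRNAs in introns. After splicing the intron is trimmed to the mature snoRNA, which box C/D or box H/ACA proteins bind and which guides 2′-O-methylation (box C/D) or pseudouridylation (box H/ACA) of ribosomal RNA. The spliced exons are exported and, in several hosts such as GAS5, are engaged by ribosomes and removed by nonsense-mediated decay. Many hosts start with a run of pyrimidines, the 5′ terminal oligopyrimidine (TOP) feature that ties translation of ribosomal protein mRNAs to mTOR signalling. The sequencing here measured the polyadenylated exonic RNA, not the snoRNAs.

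Coordinates of the members are on GRCh38 from the GENCODE v29 annotation. GAS5, the growth arrest-specific transcript, occupies chromosome 1 from 173863900 to 173868882 on the minus strand, and all 10 box C/D snoRNAs listed for it lay within it. SNHG1 (chromosome 11, 62851988 to 62855914, minus strand) held 8 box C/D snoRNAs, SNHG5 (chromosome 6, 85660950 to 85678748, minus strand) held 2, and SNHG16 (chromosome 17, 76557766 to 76565348, plus strand) held 3. SNHG6 held 1 box C/D snoRNA. The box H/ACA hosts were SNHG3 (chromosome 1, 28505980 to 28510892, plus strand) with 2 snoRNAs, SNHG7 (chromosome 9, 136721366 to 136728184, minus strand) with 2, SNHG8 (chromosome 4, 118278709 to 118279823, plus strand) with 1 and SNHG15 (chromosome 7, 44983023 to 44986961, minus strand) with 1. SNHG12 (chromosome 1, 28578538 to 28583132, minus strand) held 4 snoRNAs of both classes. The files count 1 transcript for each member, from 472 bases for SNHG6 to 2538 bases for SNHG16, so no result bears on splicing or on a choice between isoforms.

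The annotated start sites of the members are shown because the leading pyrimidine run is the feature that groups many of these hosts with ribosomal protein mRNAs. The sequences are from RefSeq on GRCh38.p14, 5′ to 3′ on the strand of the gene, with 20 bases before the start and 30 transcribed bases. Capitals mark an unbroken run of C and T that begins with C at the first transcribed base and is at least 4 bases long. ZFAS1 and SNHG4, other noncoding hosts with opposite responses to FB23-2, are shown for comparison.
SNHG5: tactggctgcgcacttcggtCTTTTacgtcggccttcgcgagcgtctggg
SNHG7: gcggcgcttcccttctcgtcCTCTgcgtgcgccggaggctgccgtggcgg
SNHG12: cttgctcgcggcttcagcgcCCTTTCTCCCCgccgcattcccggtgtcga
SNHG1: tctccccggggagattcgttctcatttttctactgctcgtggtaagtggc
SNHG3: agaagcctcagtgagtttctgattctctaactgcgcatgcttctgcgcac
SNHG8: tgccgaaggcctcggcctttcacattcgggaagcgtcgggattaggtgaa
SNHG16: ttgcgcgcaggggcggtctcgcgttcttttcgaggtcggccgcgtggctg
ZFAS1: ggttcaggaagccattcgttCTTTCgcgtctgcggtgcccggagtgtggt
SNHG4: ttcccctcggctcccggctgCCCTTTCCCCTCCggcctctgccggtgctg

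The stretches are chr6:85678704-85678753 for SNHG5, chr9:136728155-136728204 for SNHG7, chr1:28581844-28581893 for SNHG12, chr11:62855856-62855905 for SNHG1, chr1:28505923-28505972 for SNHG3, chr4:118278742-118278791 for SNHG8, chr17:76557744-76557793 for SNHG16, chr20:49278622-49278671 for ZFAS1 and chr5:139274081-139274130 for SNHG4. A run as marked was present at the annotated start of 3 of the 8 members with an entry, against 5.45% of all 35116 windows. The annotated start was the same as that of the counted transcript in GENCODE for SNHG5 and SNHG7, and differed by 18 bases for SNHG1, 28 for SNHG16, 37 for SNHG3, 53 for SNHG8 and 55 for SNHG12. For GAS5 it differed by 1058 bases, so its window is not shown. That window is among the 8 in both counts given here and held neither the run nor CACGTG. It does not describe the start of the counted GAS5 transcript. CACGTG, the E-box that MYC and related factors bind and that reads the same on both strands, occurred in the 300-base window of 1 of the 8 members, SNHG7, against 7.26% of all windows.

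Library totals ranged from 12360291 expected counts (FB23 replicate 1) to 38410750 (FB23 replicate 3), and 13365 genes passed the filter on low counts. The members were well covered, from 165 counts for SNHG15 in FB23-2 replicate 3 to 11220 for SNHG1 in FB23 replicate 3. The labelled cell type was checked against markers. Of 6 genes of promyelocytes and early myeloid cells, MPO and CTSG were at 0 in all 9 libraries, ELANE, PRTN3 and AZU1 had 1, 31 and 43 counts over all libraries, and CD33 had a mean of 44.0 TPM in DMSO. Erythroid genes were abundant, with a summed level of 27270 to 28860 TPM over 8 markers in DMSO, 31200 to 33570 in FB23 and 4012 to 4586 in FB23-2. The granule genes that define promyelocytes were thus at or near 0, against the label. With FB23 3 of the 8 erythroid markers rose and 5 did not pass, and of the epithelial markers EPCAM (-0.46) and KRT19 (-0.41) fell and KRT8 (0.37) rose on the log2 scale (summed over 6 markers 411 to 432 TPM). With FB23-2 all 8 fell, while of 6 epithelial or fibroblast markers KRT8, KRT19 and COL1A1 rose and EPCAM fell (summed 390 to 393 TPM in DMSO and 1955 to 2090 in FB23-2). Of 5 lymphoid markers CD3D rose, and the sum went from 4.87 to 6.86 TPM in DMSO to 30.6 to 35.4. These shifts accompany the FB23 and FB23-2 results below, and their part in those results was not tested. FTO itself was at 39.8 CPM (counts relative to the TMM-scaled size of each library) in DMSO and 37.2 in FB23 (log2 fold change -0.10, SE 0.062, adjusted p = 0.253, edgeR), and lower in FB23-2 at 31.2 (log2 fold change -0.35, SE 0.0635, adjusted p = 7.33e-05, edgeR).

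In the DMSO libraries SNHG5, host of the U50 snoRNAs, was the most abundant member and SNHG16 the least abundant, both by TPM and by counts per kilobase of full transcript length. TPM, the length-scaled share of transcripts, was 3112 ± 74.6 for SNHG5 (SD, n = 3), 849 ± 5.16 for GAS5, 665 ± 24.5 for SNHG1 and 646 ± 30.8 for SNHG6. SNHG8, SNHG12, SNHG3, SNHG7 and SNHG15 followed between 156 and 191 TPM, and SNHG16 was at 50.2 ± 1.08. The libraries of SNHG1 and SNHG6 overlapped in TPM, as did those of SNHG8 and SNHG12, of SNHG12 and SNHG3, and of SNHG7 and SNHG15. Between the other neighbours in this order the libraries did not overlap.

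Part of the order depends on how length enters. TPM divides by the effective length, the number of positions at which a fragment fits, and for transcripts hardly longer than a fragment this is small. SNHG6 is 472 bases long but had an effective length of 85.4 to 111 bases, and SNHG5 is 507 bases long with 115 to 143. By CPM per kilobase of full length, SNHG5 remained first in DMSO at 621 ± 15.4 (SD, n = 3), but SNHG1 came second at 334 ± 11.3, before GAS5 at 260 ± 3.82. SNHG3 stood at 108 ± 1.49 on that scale and its libraries overlapped those of SNHG6 at 106 ± 5.42, whereas by TPM SNHG6 was well above SNHG3. Fold changes between groups are therefore given from counts, and levels between genes only on a named scale.

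**Figure D1:**
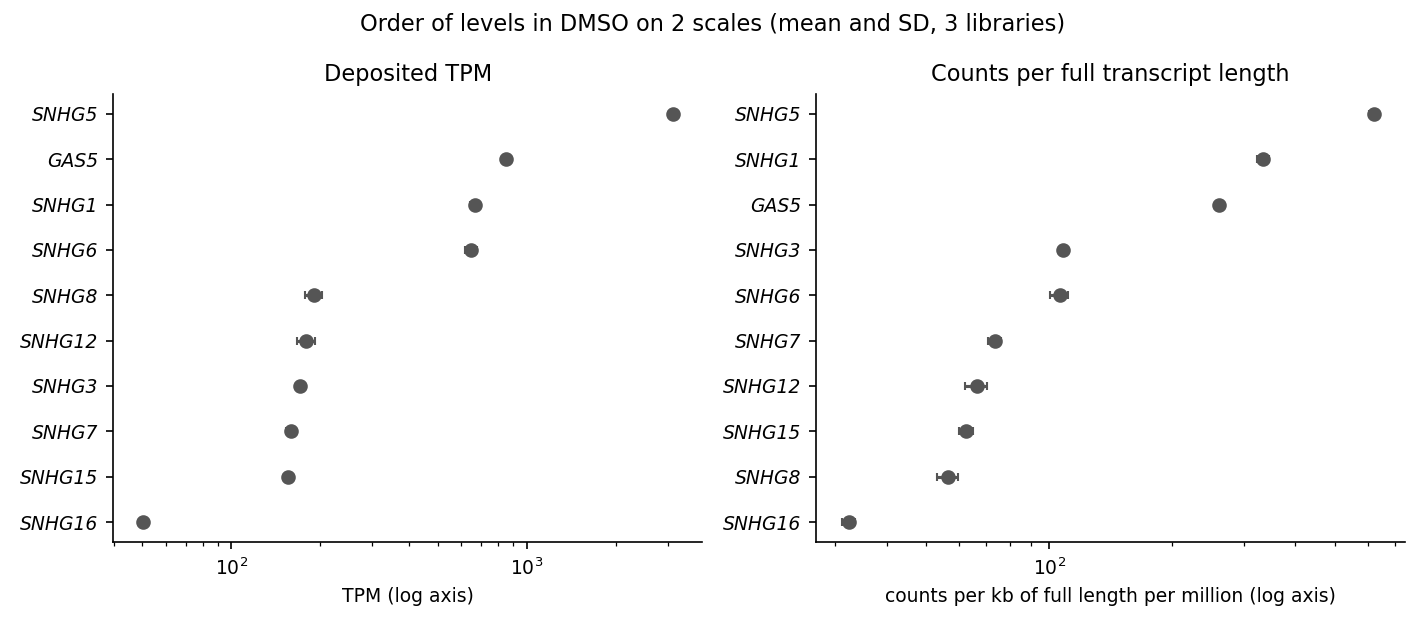
Mean and SD of 3 DMSO libraries for each host gene, by deposited TPM (left) and by CPM per kilobase of full transcript length (right), both on log axes. SNHG5 is highest and SNHG16 lowest on both scales, while the short SNHG6 and the longer SNHG3 change places.

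FB23 against DMSO asks how the hosts stood after the first compound. Of the 10 members, 6 fell, none rose and 4 did not pass, at an adjusted p under 0.05 in edgeR's quasi-likelihood test. Over all 13365 genes 23.5% passed, 12.3% higher and 11.2% lower. The members' median log2 fold change was -0.25 against 0.004 for all genes, and their range ran from -0.50 to 0.06. CPM values of the groups did not overlap for 8 members, against 37.9% of all genes. In bulk RNA, fewer cells of a type and less RNA per cell cannot be told apart.

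SNHG15, host of SNORA9, fell most. It measured 51.1, 51.6 and 48.1 CPM in the DMSO libraries and 30.2, 35.5 and 39.1 CPM in the FB23 libraries, which all lay below the DMSO values. The log2 fold change was -0.50 (SE 0.0824, adjusted p = 0.000371, edgeR), a 1.42-fold decrease. SNHG16, host of the SNORD1 family, measured 85.2, 81.3 and 79.6 CPM in DMSO and 64.4, 67.0 and 61.5 CPM in FB23, again without overlap. Its log2 fold change was -0.35 (SE 0.0525, adjusted p = 0.000164, edgeR). SNHG7, host of SNORA17 copies, fell by the same amount, from 72.2, 68.3 and 73.0 CPM to 53.3, 53.8 and 59.3 CPM (log2 fold change -0.35, SE 0.0546, adjusted p = 0.000232, edgeR).

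The 3 most abundant hosts by CPM fell by smaller amounts. SNHG1, host of SNORD22 and SNORD25 to SNORD31, went from 370, 387 and 362 CPM in DMSO to 307, 322 and 303 CPM in FB23 (log2 fold change -0.26, SE 0.0439, adjusted p = 0.000424, edgeR). SNHG3, host of the U17 snoRNAs SNORA73A and SNORA73B, went from 237, 243 and 243 CPM to 208, 205.5 and 201 CPM (log2 fold change -0.24, SE 0.0587, adjusted p = 0.00805, edgeR). The SNHG3 call was lost on TPM, where limma gave an adjusted p of 0.101 with a pseudocount of 1. SNHG5 measured 310, 324 and 310 CPM in DMSO and 211, 276.5 and 292 CPM in FB23, so that FB23 replicate 1 stood well below the other FB23 libraries (log2 fold change -0.27, SE 0.0789, adjusted p = 0.0209, edgeR). Without FB23 replicate 1 it was -0.15 (adjusted p = 0.0254, edgeR), and the call was lost when any 1 of the DMSO libraries was left out (adjusted p = 0.0525 to 0.0804, edgeR).

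FB23 replicate 1 also had the longest fragments, 399 bases against 367 to 378.5 in the other 8 libraries, taken as length minus effective length. The 4 shortest members, SNHG6, SNHG5, SNHG8 and GAS5, each had their lowest FB23 CPM in that library, as did SNHG7 and SNHG15. SNHG6 measured 43.2 CPM there and 53.6 and 57.2 CPM in the other FB23 libraries, while its TPM, which allows for fragment length, was 685, 684 and 672. By TPM these lay above the DMSO libraries, at 668, 660 and 611. The part of fragment length in the FB23 values of these members was not tested.

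The 4 members that did not pass were GAS5, SNHG6, SNHG8 and SNHG12. GAS5 measured 167, 163 and 162.5 CPM in DMSO and 136, 154 and 151 CPM in FB23, without overlap, at a log2 fold change of -0.16 (SE 0.0582, adjusted p = 0.0595, edgeR). With DESeq2's size factors its adjusted p in edgeR was 0.0455. It was 0.0396 in edgeR on the 6 compared libraries alone and 0.0345 in DESeq2's Wald test. Under every other setting GAS5 did not pass. SNHG12 was at -0.16 (SE 0.0645, adjusted p = 0.0823, edgeR) and SNHG8, host of SNORA24, at -0.15 (SE 0.091, adjusted p = 0.257, edgeR). SNHG8 passed at -0.28 (adjusted p = 0.0185, edgeR) without FB23 replicate 3, and was at -0.07 (adjusted p = 0.595, edgeR) without FB23 replicate 1. SNHG6 was at 0.06 (95% interval -0.11 to 0.23, adjusted p = 0.635, edgeR), with FB23 libraries on both sides of the DMSO values in CPM, and at -0.01 without FB23 replicate 3.

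**Figure D2:**
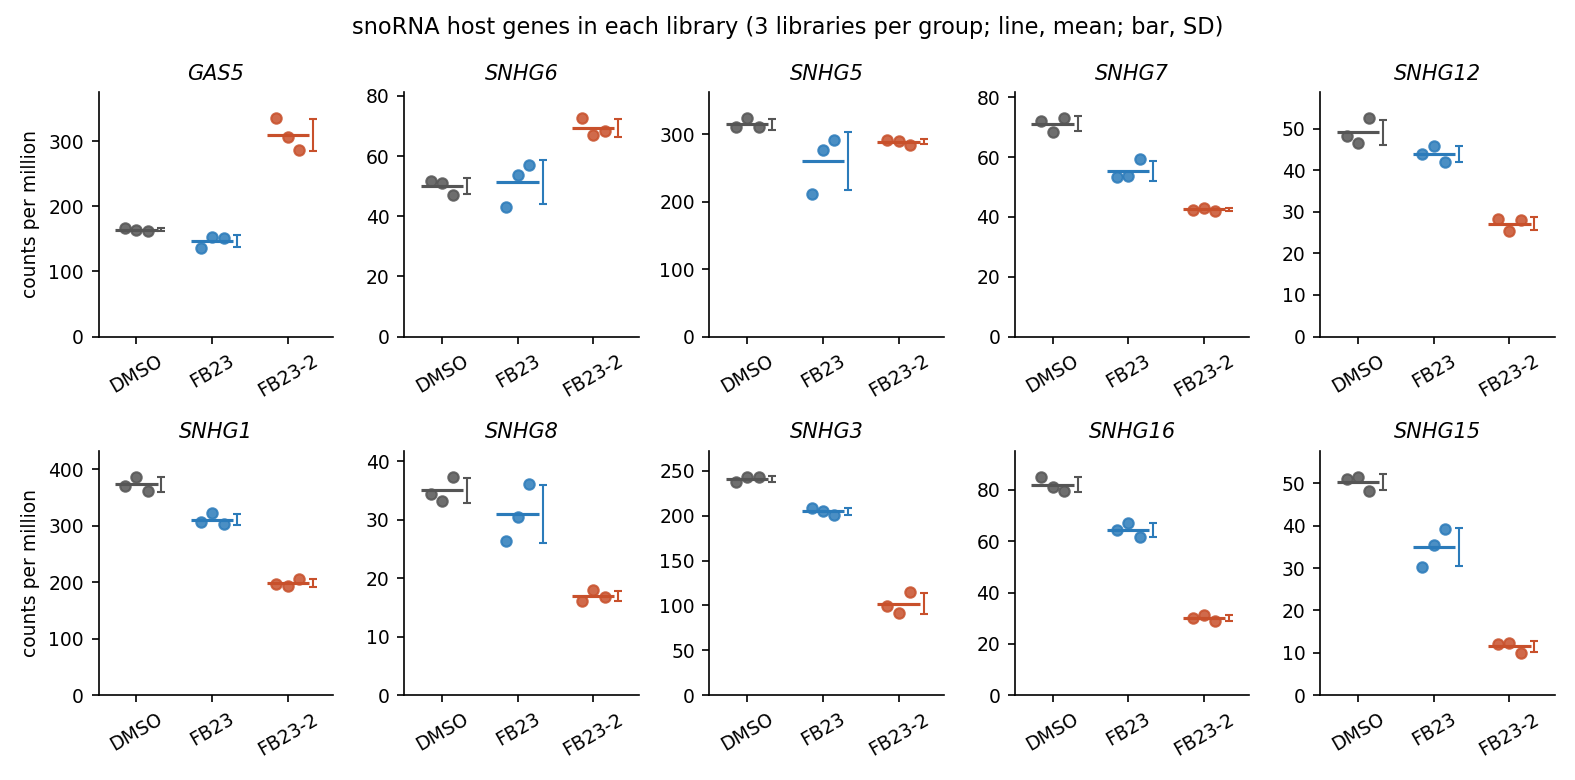
CPM of each host gene in each of the 9 libraries (points), with the group mean (line) and SD (bar), each panel on its own axis from 0. GAS5 and SNHG6 are highest in FB23-2, SNHG5 differs little between DMSO and FB23-2, and the other 7 hosts step down from DMSO to FB23-2.

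With FB23-2 the hosts moved in both directions against DMSO. GAS5 and SNHG6 rose, SNHG1, SNHG3, SNHG7, SNHG8, SNHG12, SNHG15 and SNHG16 fell, and SNHG5 did not pass. Of all 13365 genes 82.6% passed, 41.3% higher and 41.3% lower, so that 9 of 10 members called is near the background. With upper-quartile factors 6451 genes were higher and 4642 lower, in place of 5523 and 5518. The members' median log2 fold change was -0.88 against 0.01 over all genes, and 7 of 10 were lower. CPM values did not overlap for any member, SNHG5 included, against 84.2% of all genes. The span from the lowest to the highest member was 3.03 log2 units, against 0.56 in FB23, and over all genes the median absolute log2 fold change was 0.73 against 0.14.

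GAS5, whose RNA was first found in growth-arrested cells, was 1.89-fold higher. It measured 167, 163 and 162.5 CPM in DMSO and 335, 306 and 286 CPM in FB23-2, with every FB23-2 library far above every DMSO library. The log2 fold change was 0.91 (SE 0.0576, adjusted p = 7.99e-11, edgeR). SNHG6, host of SNORD87, measured 51.8, 51.2 and 47.1 CPM in DMSO and 72.6, 67.0 and 68.5 CPM in FB23-2, a 1.39-fold increase (log2 fold change 0.47, SE 0.0783, adjusted p = 2.52e-05, edgeR). Both are among the 4 shortest members, with SNHG5 and SNHG8.

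SNHG5 measured 310, 324 and 310 CPM in DMSO and 292, 290 and 285 CPM in FB23-2. The FB23-2 libraries lay just below the DMSO libraries, at a log2 fold change of -0.12 (95% interval -0.29 to 0.04, adjusted p = 0.154, edgeR). The sign depended on the scaling: it was 0.05 with upper-quartile factors, 0.02 with library totals and 0.07 on TPM. Those scalings moved the median of all genes to 0.18, 0.16 and 0.17, so that relative to the median gene SNHG5 stayed lower under each of them. Fitted on the 6 libraries alone, SNHG5 was lower at -0.12 (adjusted p = 0.00779, edgeR). With no filter on low counts it also passed, at -0.15 (adjusted p = 0.0185, edgeR).

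The other box C/D hosts fell. SNHG1 measured 370, 387 and 362 CPM in DMSO and 197, 193 and 206 CPM in FB23-2, a 1.88-fold decrease (log2 fold change -0.91, SE 0.0446, adjusted p = 2.38e-12, edgeR). SNHG16 measured 85.2, 81.3 and 79.6 CPM in DMSO and 29.96, 31.2 and 28.8 CPM in FB23-2, a 2.73-fold decrease (log2 fold change -1.45, SE 0.0566, adjusted p = 1.03e-13, edgeR). Of the 5 box C/D hosts, 2 were thus higher, 2 lower and 1 not called.

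All 4 box H/ACA hosts fell, as did SNHG12, which carries both classes. SNHG15 dropped furthest, from 51.1, 51.6 and 48.1 CPM to 12.2, 12.3 and 10.03 CPM, a 4.34-fold decrease (log2 fold change -2.12, SE 0.0947, adjusted p = 6.62e-13, edgeR), and 2.96% of tested genes had a lower value. SNHG3 measured 237, 243 and 243 CPM in DMSO and 99.0, 91.8 and 115 CPM in FB23-2 (log2 fold change -1.25, SE 0.0609, adjusted p = 2.27e-12, edgeR). SNHG8 measured 34.4, 33.2 and 37.3 CPM in DMSO and 16.1, 17.9 and 16.8 CPM in FB23-2 (log2 fold change -1.05, SE 0.0983, adjusted p = 2.11e-08, edgeR). The libraries of the groups were far apart for each of these genes.

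SNHG12 measured 48.2, 46.5 and 52.5 CPM in DMSO and 28.2, 25.3 and 27.95 CPM in FB23-2 (log2 fold change -0.85, SE 0.0679, adjusted p = 2.24e-09, edgeR). SNHG7 moved least of these, from 72.2, 68.3 and 73.0 CPM to 42.4, 43.1 and 41.9 CPM (log2 fold change -0.74, SE 0.0564, adjusted p = 1.08e-09, edgeR). The difference between the snoRNA classes was noticed after the values were seen and was not tested. Among members with a marked pyrimidine run at the annotated start, SNHG5 did not pass while SNHG7 and SNHG12 fell. For SNHG12 that start lies 55 bases from the start of the counted transcript.

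**Figure D3:**
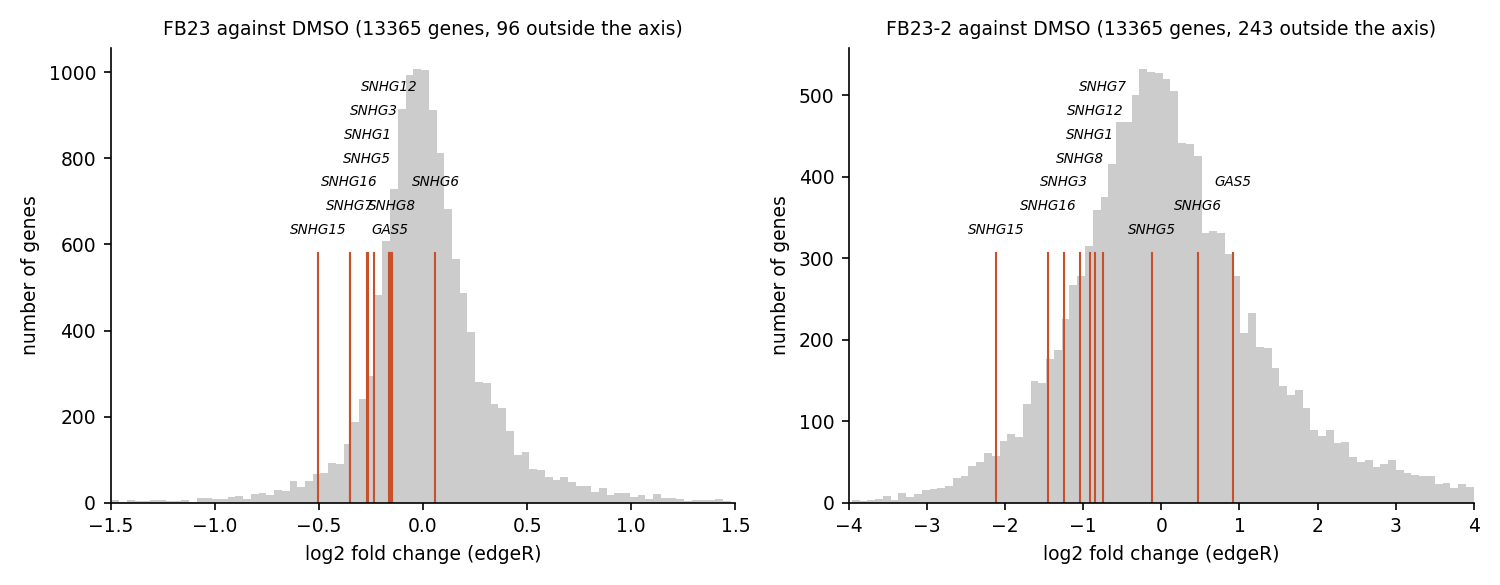
Histogram of edgeR log2 fold changes of 13365 genes (grey) for FB23 (left) and FB23-2 (right) against DMSO, with the 10 host genes as vertical lines. With FB23 the lines sit from -0.50 to 0.06, and with FB23-2 they spread from -2.12 to 0.91.

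FB23-2 was also set against FB23 directly, at 48 h and with no dose given for either. GAS5 and SNHG6 were higher in FB23-2, the same 7 members as against DMSO were lower, and SNHG5 did not pass, with 10 genes compared and p adjusted over all 13365. Of all genes 81.5% passed, 40.4% higher and 41.1% lower, and groups did not overlap for 9 members against 81.2% of all genes. The DMSO comparisons share their control libraries, so only the direct comparison is used for the difference between compounds.

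GAS5 was 2.10-fold higher in FB23-2, at 335, 306 and 286 CPM against 136, 154 and 151 CPM in FB23 (log2 fold change 1.07, SE 0.0574, adjusted p = 9.21e-12, edgeR). SNHG15 was 3.06-fold lower, at 12.2, 12.3 and 10.03 CPM against 30.2, 35.5 and 39.1 CPM (log2 fold change -1.61, SE 0.0949, adjusted p = 3.41e-11, edgeR). SNHG16 was 2.14-fold lower (log2 fold change -1.10, SE 0.0564, adjusted p = 5.12e-12, edgeR). All 3 were separated by more than the spread between libraries.

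Differences between the compounds were smaller for SNHG3 (-1.01), SNHG8 (-0.90), SNHG12 (-0.69), SNHG1 (-0.65) and SNHG7 (-0.39) on the log2 scale, each with an adjusted p under 0.05 in edgeR. SNHG6 was higher in FB23-2 by 0.41 (SE 0.0761, adjusted p = 8.15e-05, edgeR). For SNHG5 the difference was 0.14 (95% interval -0.02 to 0.31, adjusted p = 0.0995, edgeR), and the FB23-2 libraries at 292, 290 and 285 CPM overlapped the FB23 libraries at 211, 276.5 and 292 CPM. Without FB23 replicate 1 it was 0.03 (adjusted p = 0.588, edgeR), and without FB23 replicate 3 it passed at 0.24 (adjusted p = 0.00423, edgeR). On TPM it was 0.32 (adjusted p = 1.35e-05, limma). It also passed with upper-quartile factors (0.31, adjusted p = 0.00171, edgeR) and library totals (0.27, adjusted p = 0.00293, edgeR). Those 2 scalings put the median of all genes at 0.17 and 0.13. SNHG5 passed narrowly with a filter of 1 CPM (adjusted p = 0.0485, edgeR) and in DESeq2's Wald test (adjusted p = 0.0315). It did not pass under the remaining settings.

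**Figure D4:**
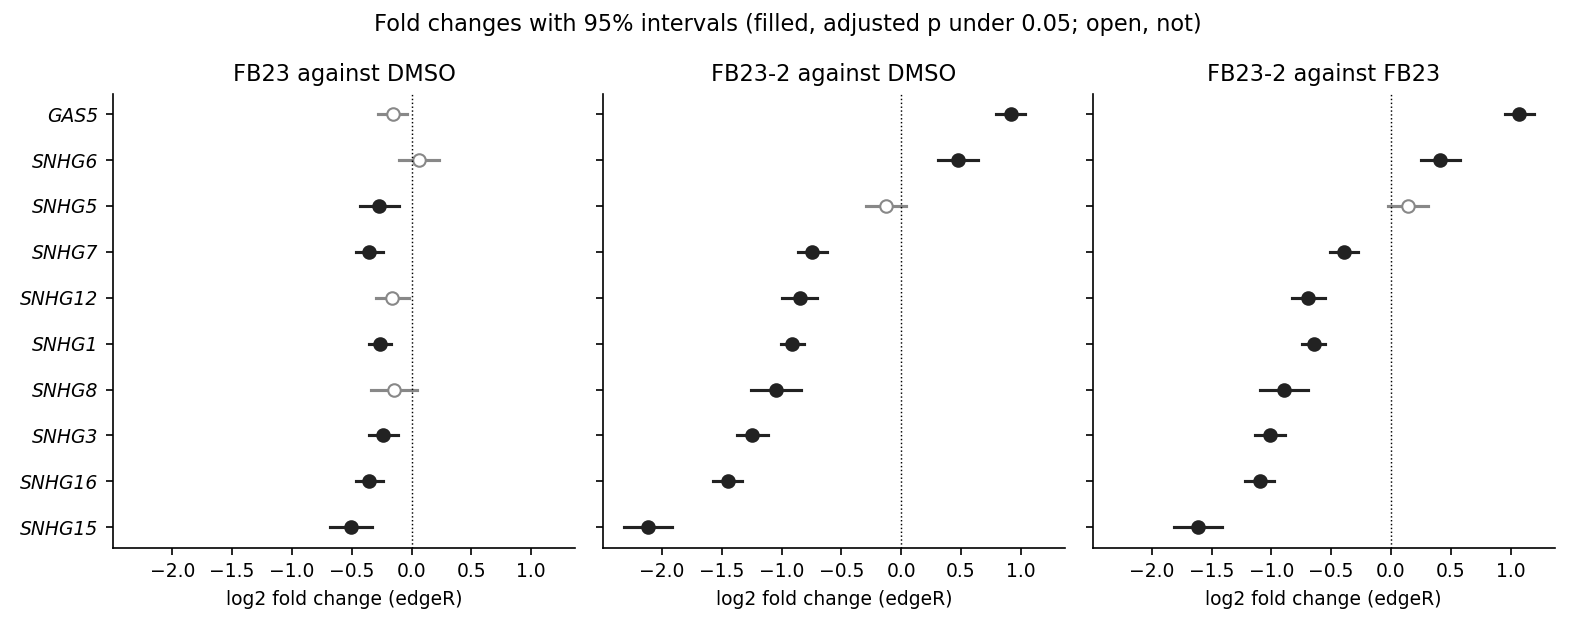
edgeR log2 fold changes with 95% intervals in the 3 comparisons, host genes ordered by the FB23-2 value. Filled points passed at an adjusted p under 0.05. GAS5 and SNHG6 lie above 0 and 7 hosts below 0 in both FB23-2 panels, while with FB23 the 6 genes that passed are all below 0.

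Ratios of counts within a library need no scaling between libraries and give the same changes in another form. The pairs shown were not chosen by a stated rule. Their ratios follow from the fold changes above and are not separate support for them. GAS5 counts were 0.451, 0.422 and 0.449 of SNHG1 counts in the DMSO libraries and 0.442, 0.477 and 0.497 in FB23, but 1.70, 1.59 and 1.39 in FB23-2. The ratio was thus above 1 in all 3 FB23-2 libraries and below 1 in the other 6. GAS5 over SNHG15 was 3.27, 3.16 and 3.38 in DMSO, 4.50, 4.33 and 3.85 in FB23 and 27.6, 24.9 and 28.6 in FB23-2. SNHG5 over SNHG16 was above the other groups in FB23-2, at 9.74, 9.31 and 9.89 against 3.64 to 3.98 in DMSO and 3.28 to 4.75 in FB23.

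The order of the members by counts per kilobase changed accordingly. In FB23-2 GAS5 stood second at 489 ± 38.9 (SD, n = 3) behind SNHG5 at 570 ± 7.23, with SNHG1 next at 178 ± 5.77 and SNHG6 at 147 ± 6.13. SNHG15 had dropped to 14.3 ± 1.58, just above SNHG16 at 11.8 ± 0.467. In DMSO SNHG15 had been at 62.6 ± 2.33 on this scale.

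The summed level of the 10 members was lower with FB23 in each unit, while for FB23-2 the direction depended on the unit. Summed TPM was 6178 ± 91.6 in DMSO, 5401 ± 130 in FB23 and 7056 ± 107 in FB23-2 (SD, n = 3). As a percent of all expected counts the members made up 0.137, 0.117 and 0.117, so that FB23-2 was higher than DMSO by TPM and lower by counts. Neither unit is TMM-scaled. With FB23-2 the log2 ratio of the sums to DMSO was 0.19 by TPM and -0.24 by percent of counts. The median log2 fold change of all genes was 0.17 on TPM and 0.16 with library totals, so the TPM sum rose about as the median gene did. The 2-sided exact permutation p was 0.1 for both compounds against DMSO in either unit, the smallest that 3 against 3 can give, and 0.8 for FB23-2 against FB23 in percent of counts. The TPM sum is dominated by the short SNHG5, and without it the sums were 3067, 2776 and 3785.

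The other noncoding hosts, 13 of which could be tested, were also mixed. For this and the other lists below, the shares of all genes called were 23.5% with FB23 (12.3% higher, 11.2% lower) and 82.6% with FB23-2 (41.3% higher, 41.3% lower), and no difference between lists was tested. With FB23, 6 fell and 7 did not pass (median log2 fold change -0.22). DANCR was lowest at -0.46 (SE 0.0664, adjusted p = 0.000134, edgeR), followed among the called genes by SNHG17 at -0.39, SNHG4 at -0.33 and ZFAS1 at -0.31. With FB23-2, 2 rose, 8 fell and 3 did not pass (median -0.65). C6orf48, also named SNHG32, went from 109 to 222 mean CPM (log2 fold change 1.02, SE 0.0532, adjusted p = 5.45e-12, edgeR). ZFAS1, host of SNORD12 family members, went from 56.5 to 78.5 mean CPM (0.48, SE 0.0514, adjusted p = 1.38e-07, edgeR), although it had fallen with FB23.

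The largest decreases among these hosts with FB23-2 were SNHG4 at -2.88 (SE 0.0983, adjusted p = 1.63e-14, edgeR) and DANCR at -2.70 (SE 0.0749, adjusted p = 1.1e-15, edgeR). SNHG21, SNHG17, SNHG20, SNHG24, SNHG19 and SNHG11 fell by smaller amounts, from -1.64 to -0.47. SNHG10 (-0.18), LRRC75A-AS1, now SNHG29 (0.03), and EPB41L4A-AS1 (0.09) did not pass. SNHG4 and ZFAS1 both have a marked pyrimidine run at the RefSeq start, of 13 and 5 bases. Whether these starts are those of the counted transcripts was not checked.

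Host genes that code for proteins were counted as 2 lists, ribosomal protein genes and others. Of 24 ribosomal protein genes that host snoRNAs, 1 fell with FB23, RPL23 at -0.16 (adjusted p = 0.0482, edgeR), and 23 did not pass. With FB23-2, 4 rose, 13 fell and 7 did not pass, from -0.51 (RPL23) and -0.49 (RPL5) to 0.28 (RPL10) and 0.34 (RPL12), with a median of -0.14. Of 19 other coding hosts, 1 rose and 8 fell with FB23 (median -0.10), from PPAN at -0.37 to TPT1 at 0.16. With FB23-2, 2 rose, 15 fell and 2 did not pass (median -1.19). PPAN, a factor of large ribosomal subunit assembly, was lowest at -2.92 and WDR43, a small subunit assembly factor, next at -2.64, while TPT1, the translationally controlled tumour protein, was highest at 0.96 and TAF1D at 0.22.

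The mRNAs of proteins that bind and mature snoRNAs fell together with FB23-2. All 17 tested were lower, with a median of -2.02 and a range from -3.22 to -0.61. GAR1, a core protein of box H/ACA particles, went from 51.1 to 5.42 mean CPM (log2 fold change -3.22, SE 0.102, adjusted p = 6.06e-15, edgeR), and NOLC1, a chaperone of snoRNPs in the nucleolus, was at -2.44. The assembly factors PIH1D1 (-0.68) and ZNHIT3 (-0.61) fell least. With FB23, 8 of the 17 fell and 9 did not pass (median -0.15), with GAR1 at -0.35 and DKC1, the pseudouridine synthase of box H/ACA particles, at -0.28. MYC, which drives many genes of ribosome production, was at -0.30 with FB23 (adjusted p = 0.000276, edgeR) and -1.83 with FB23-2 (adjusted p = 8.21e-16, edgeR). Whether the MYC level bears on these genes or on the hosts was not tested.

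Of 15 factors of nonsense-mediated decay and the exon junction complex, 3 fell with FB23, with UPF2 lowest at -0.18, and 12 did not pass. With FB23-2, 1 rose (SMG6 at 0.20), 12 fell and 2 did not pass (median -0.56). The mRNAs of the exon junction proteins MAGOHB (-2.20) and MAGOH (-1.59) were lowest. Other mRNAs with a known TOP start were divided, with 6 of 15 higher, 6 lower and 3 not passing with FB23-2 (median -0.05). TPT1 (0.96) and NAP1L1 (0.64) were highest, and NPM1 (-1.25) and HNRNPA1 (-0.80) lowest. The lists overlap: TPT1, EEF1B2 and RACK1 are counted here and among the coding hosts. NOP56 and DKC1 are counted both among the coding hosts and among the proteins that bind and mature snoRNAs.

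Of 15 tested genes of mTOR and TOP control, 5 rose, 2 fell and 8 did not pass with FB23, and 7 rose and 8 fell with FB23-2, near the even split of all genes. SESN3 (3.12) and DDIT4 (2.22), both stress-induced inhibitors of mTOR complex 1, were highest with FB23-2. MLST8 (-1.47), a subunit of the mTOR complexes, and LARP1 (-1.21), which binds TOP mRNAs, were lowest. With FB23 SESN3 was at 1.21 and SESN2 at 0.47, and LARP1 at -0.21 and RPTOR at -0.17. Whether these levels bear on the host genes was not tested.

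**Figure D5:**
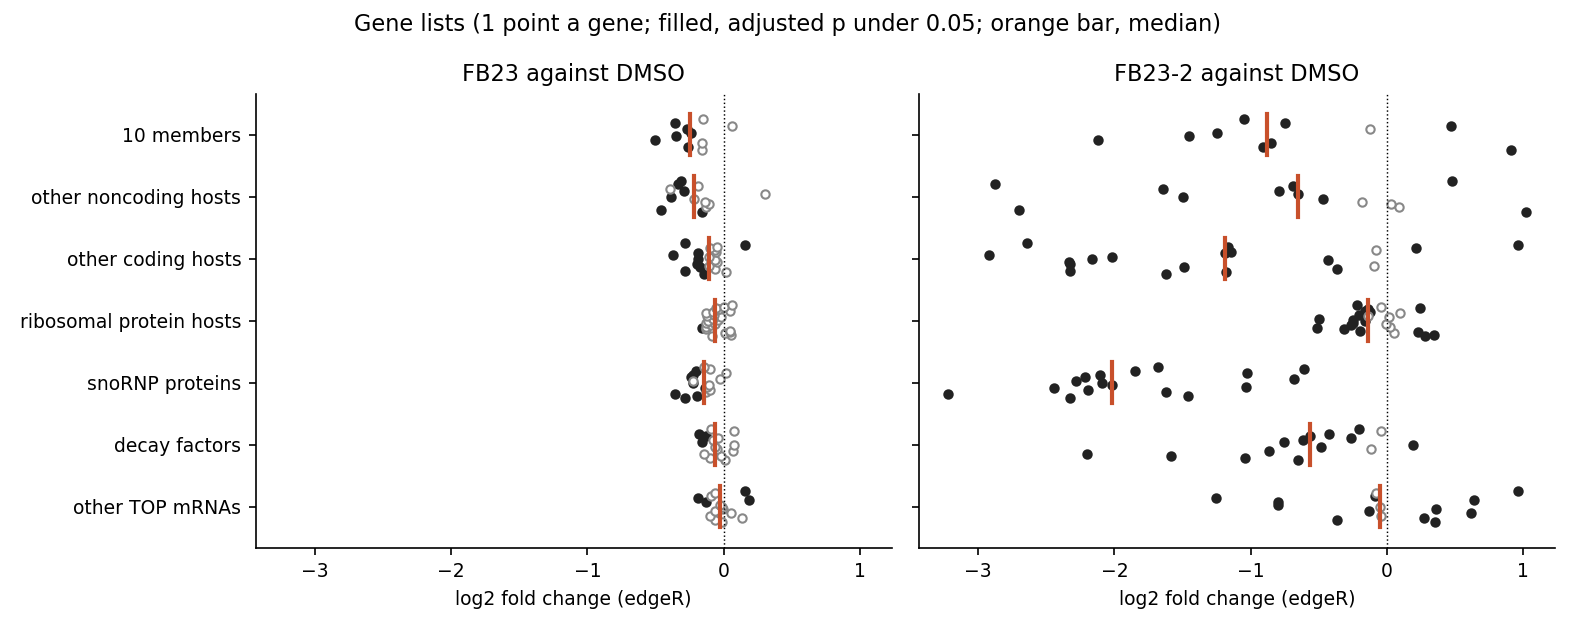
edgeR log2 fold changes against DMSO, 1 point a gene, for the 10 members and 6 related gene lists, with FB23 on the left and FB23-2 on the right. Filled points passed at an adjusted p under 0.05, and bars mark medians. With FB23-2 the genes of snoRNP proteins all lie below 0, the ribosomal protein hosts stay between -0.51 and 0.34, and the noncoding hosts spread to both sides.

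Neighbouring genes bear on how far counts belong to a member. SNHG3 lies wholly within RCC1, the nucleotide exchange factor of RAN, on the same strand. SNHG3 had 1 library with an expected count that was not whole, 3933.46 in DMSO replicate 3, and RCC1 fell with FB23-2 at -1.42 (SE 0.042, adjusted p = 2.53e-15, edgeR), close to SNHG3 at -1.25. The annotation places FAM69B across 2685 bases of SNHG7 on the opposite strand. FAM69B fell with FB23-2 at -1.36, from 36.3 CPM in DMSO, and was at 0.02 with FB23 (adjusted p = 0.898, edgeR). ZBTB37 overlaps GAS5 by 801 bases on the opposite strand, at 8.72 CPM in DMSO and -0.54 with FB23-2, opposite in sign to GAS5. The library kit was directional, but whether counting used strand is not given in the sources used here, so reads of such partners may not be told apart.

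Neighbours of other members did not move with them in every case. SLC3A2, an amino acid transporter subunit that starts 187 bases from SNHG1 on the opposite strand, was at -0.22 with FB23-2 (adjusted p = 0.000326, edgeR), while SNHG1 was at -0.91 and WDR74, on its other side, at -2.67. SYNCRIP, next to SNHG5, was at -2.02 while SNHG5 did not pass. CCM2, next to SNHG15, rose by 0.85 (adjusted p = 2.39e-08, edgeR) while SNHG15 fell. TAF12, next to SNHG12, rose by 0.65 (adjusted p = 1.13e-06, edgeR) while SNHG12 fell.

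For the members the 3 genes with the most similar profile were sought among 11365 genes, by the root-mean-square difference of mean-centred log2 CPM over the 9 libraries. SNHG16 was nearest to another noncoding host, SNHG17, at 0.0546, and then to RCC1 and HSPA14. SNHG5 was nearest to the ribosomal protein gene RPL41 at 0.0608, then RAD9A, then the ribosomal protein gene RPLP2. SNHG5 varied most within FB23, where replicate 1, with fragments of 399 bases, was at 211 CPM. RPLP2 ranged from 216 to 320 CPM in FB23 and from 298 to 303 CPM in DMSO. The part of that library and of fragment length in these matches was not tested.

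SNHG1 was nearest to CCDC47 (0.0381), SNHG12 to ZNF770 (0.0403), SNHG7 to FUT8 (0.0501), SNHG3 to NOL8 (0.0535), SNHG6 to ABCD4 (0.0602), SNHG8 to COX14 (0.0647) and SNHG15 to ACSS1 (0.0939). Among the members themselves the most similar pair was SNHG1 and SNHG12, at 0.0834, followed by SNHG1 and SNHG7 at 0.134 and by SNHG3 and SNHG16 at 0.138. These profiles rest on 9 libraries in 3 groups, and 82.6% of genes passed with FB23-2.

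The snoRNAs inside the members were not measured by these libraries. Of 35 snoRNAs listed for the 10 hosts 34 had a row, and 1 of them, SNORA73A of SNHG3, had any count, with 3 counts in 1 library. All 429 snoRNA rows held 21 counts of 192662586 in the 9 libraries together. A host level here therefore gives no value for its snoRNAs.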

How the data were processed

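Poly(A) RNA of 9 libraries was sequenced, 3 each for DMSO, FB23 and FB23-2. The authors deposited 1 table per library with 26830 genes, made with RSEM 1.2.31 on GRCh38 per the submitters' processing notes. Its expected count column is RSEM's estimate of reads per gene, its TPM column is scaled to effective length and library total, and its length and effective length columns are in bases, per the file headers. For the aligner, the annotation and the strand setting, nothing is stated in the labels or headers.

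Rounded expected counts entered a fit in edgeR 4.0.16 (R 4.3.3), after filterByExpr (minimum count 10, minimum total 15) and TMM scaling, as a quasi-likelihood model over all 9 libraries with Benjamini-Hochberg adjustment over 13365 genes, called at 0.05. The common biological coefficient of variation was 5.12%. CPM values use TMM-scaled totals. The script was tested on simulated data. Alternatives used DESeq2 1.42.0, limma 3.58.1, other scalings and filters, a replicate block and left-out libraries.

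All 10 members are named. By the rule for names, each other list gives its 2 highest and 2 lowest called genes per comparison, and other noncoding hosts any. Not all of them are printed: the lists are described against DMSO, and marker lists mainly by sums. Members and lists were chosen with earlier results of these data known. Transcript length, planned as a comparison, is constant in the files and is void. Start sites, snoRNA positions and 300-base windows come from RefSeq (GRCh38.p14), in which 8 of 10 members had a window and 34 of 35 listed snoRNAs a position. The genes nearest in profile to GAS5 are not reported here.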

Additional observations from a re-analysis of the deposited data

How the results depend on the processing

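Of 170 log2 fold changes per comparison (10 members under 17 other settings each), 160 with FB23, 164 with FB23-2 and 163 for FB23-2 against FB23 kept both direction and side of the threshold. The direction of SNHG5 with FB23-2 turned to 0.0488 with upper-quartile factors, 0.0246 with library totals, and 0.0723 and 0.0724 on TPM with pseudocounts of 1 and 0.1. SNHG6 with FB23 ranged from -0.0149 (without FB23 replicate 3) to 0.147 (without FB23 replicate 1). The cause was not tested.

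The number of members called ranged from 5 to 7 with FB23, 9 to 10 with FB23-2 and 9 to 10 for FB23-2 against FB23 under all scalings, filters, tests and left-out libraries. Over all genes, library totals gave 1881 higher and 1172 lower with FB23 (1647 and 1497 with TMM) and 6294 and 4754 with FB23-2 (5523 and 5518). Requiring also a log2 fold change of at least 1 in size left 0, 4 and 4 members, since that rule removes smaller changes by its construction. The share of all genes under that rule was not counted, so these numbers say nothing particular to the members. Over all genes the median absolute log2 fold change was 0.14, 0.73 and 0.66. With the replicate number as a block 6, 9 and 9 members were called, against 2504, 10883 and 10705 of all 13365 genes. Correlations of deviations between same-numbered libraries ran from -0.37 to 0.06, and between differently numbered ones from -0.22 to 0.27. The block changed no call of a member. With 3 libraries per group, these values cannot decide whether libraries of the same number belong together.

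The difference in mean log2 summed TPM was -0.19, 0.19 and 0.39. In percent of counts it was -0.23, -0.24 and -0.00847, and without SNHG5 it was -0.14, 0.30 and 0.45. Leaving out each library gave -0.21 to -0.18, 0.18 to 0.20, and 0.37 to 0.41. Mean log2 length differed by 0 throughout, and effective length by -0.0142, 0.0269 and 0.0411. Depth limits little here, since the lowest member value was 165 counts. The 3 libraries per group limit single-value tests to an exact p of 0.1.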
